A study of Mus musculus with 4 samples.

Results

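The genes described here encode 8 proteins of the seminal plasma: the seminal vesicle secretory proteins Svs2, Svs4, Svs5 and Svs6, the seminal vesicle antigen Sva, the secreted immunoglobulin-family protein Ceacam10, lactoferrin (Ltf) and the sulfhydryl oxidase Qsox1. Their members were all probe sets, the groups of short probes that read 1 transcript on an Affymetrix array, whose platform annotation gives one of these 8 symbols. There were 13 such probe sets of 12422 on the array, for 8 of 8251 annotated genes. The RNA came from seminal vesicles of 4 mice with 2 wild-type Nkx3.1 alleles (Nkx3.1 +/+) on the C57Bl/6J background, all aged 15 months, with 1 Mu74AV2 array per mouse. The labels name no treatment, and all arrays belong to this single group, so the data hold levels and the spread between mice but no contrast of genotypes, ages or tissues. The numbers 1 to 4 given to the mice here follow the listing of the samples and serve as names. Nothing in the labels ties the animals to a litter or batch.

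The seminal vesicle is an androgen-dependent gland whose luminal epithelium secretes most of the protein of the ejaculate. In rodents its secretion clots after mating into the copulatory plug, when a transglutaminase from the prostate cross-links the vesicle's structural proteins. Other seminal vesicle proteins bind the sperm surface and act on motility or capacitation, and some, such as lactoferrin and sulfhydryl oxidase, are enzymes or binding proteins also made in other tissues.

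Svs2, Svs4, Svs6 and Svs5 lie on chromosome 2 in this order in the RefSeq annotation of assembly GRCm38.p6, with only Svs3b and Svs3a between them, and the protease inhibitor gene Slpi follows. Sva is on chromosome 6, Ceacam10 on 7, Ltf on 9 and Qsox1 on 1. The RefSeq table of start-site windows, each of 250 bases before and 50 bases after a start, matched all 8 genes with 9 windows, since Ceacam10 has 2 start sites. Each of the 4 clustered genes had a probe set among the brightest 1% of every array, as Sva and Ceacam10 outside the cluster also did. Svs6 stood lower, at ranks 33 to 51 by its brighter set, against ranks 1 to 7 for the sets of Svs2, Svs4 and Svs5. The 150 bases directly before the start are shown for the clustered genes and for Sva and Qsox1 as members from elsewhere in the genome. They are written 5′ to 3′ on the gene's strand, with TATAAA, the core of a TATA box, and GATAA, the core of a GATA factor motif, in capitals where they occur on that strand.
Svs5: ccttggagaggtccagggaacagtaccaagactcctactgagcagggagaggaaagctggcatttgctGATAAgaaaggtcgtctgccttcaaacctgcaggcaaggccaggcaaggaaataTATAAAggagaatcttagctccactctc
Svs6: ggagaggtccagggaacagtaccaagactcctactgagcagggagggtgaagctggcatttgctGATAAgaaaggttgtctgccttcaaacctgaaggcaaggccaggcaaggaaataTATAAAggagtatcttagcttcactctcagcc
Svs4: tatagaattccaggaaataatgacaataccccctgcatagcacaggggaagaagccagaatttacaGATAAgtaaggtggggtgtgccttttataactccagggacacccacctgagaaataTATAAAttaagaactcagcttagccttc
Svs2: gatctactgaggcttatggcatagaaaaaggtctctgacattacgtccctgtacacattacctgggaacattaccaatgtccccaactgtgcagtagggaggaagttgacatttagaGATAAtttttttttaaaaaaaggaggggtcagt
Sva: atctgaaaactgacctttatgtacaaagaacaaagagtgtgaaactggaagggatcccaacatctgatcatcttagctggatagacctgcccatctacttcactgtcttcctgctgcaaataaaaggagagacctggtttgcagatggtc
Qsox1: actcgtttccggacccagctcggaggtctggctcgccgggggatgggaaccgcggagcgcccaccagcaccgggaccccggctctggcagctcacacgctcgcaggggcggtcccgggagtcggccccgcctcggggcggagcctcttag
These stretches are chr2:164332615-164332764 (plus strand) for Svs5, chr2:164316601-164316750 (plus) for Svs6, chr2:164278308-164278457 (minus) for Svs4, chr2:164238342-164238491 (minus) for Svs2, chr6:42038244-42038393 (plus) for Sva and chr1:155812900-155813049 (minus) for Qsox1, all of GRCm38.p6.

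Svs5 and Svs6 had nearly the same upstream sequence. In a global alignment of the 250 bases before each start, 237 positions were identical over 254 columns, or 93.3%, and the longest run without a mismatch was 131 bases. Svs4 was 54.3% identical to Svs5 and 55.2% to Svs6, sharing 3 words of 10 bases with each of them and 3 with Svs2. The other 25 of the 28 pairs of members had 34.2% to 46.8% identity. Identity of such gapped alignments is well above 0 for any pair, and the values only order the pairs.

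TATAAA began 28 bases before the start in Svs5 and in Svs4 and 32 bases before it in Svs6. Of 32851 RefSeq windows of the same kind, 1.91% had TATAAA on the gene's strand beginning 25 to 40 bases before the start. Searched on both strands of the whole window, TATAAA was found in 4 of the 9 member windows (Svs2, Svs4, Svs5 and Svs6) and in 13.6% of all windows, with the nearest match of Svs2 205 bases before its start. GATAA was found in 5 of the 9 (Svs2, Svs4, Svs5, Svs6 and Ltf) and in 25.4% of all. It overlapped TATAAA in none of the member windows. AGAACA, a single arm of the palindrome bound by the androgen receptor and related steroid receptors, was found in 5 of the 9 (Svs5, Svs6, Sva and both Ceacam10 windows) and in 19% of all. Both Ceacam10 windows held the same matches, 118, 112 and 59 bases before 1 start and 155, 149 and 96 before the other. Svs5 and Svs6 have nearly the same sequence, so for each motif the windows counted are not separate cases. These motifs were chosen after the upstream sequences had been seen. The 250 bases before the start held 73.6% G and C in Qsox1, against 36% in Svs2, 37.6% in Sva, 40% in Svs4, 46.4% in Svs6, 48% in Svs5, 57.2% in Ceacam10 and 59.2% in Ltf. The median of all windows was 52.4%. These matches describe letters in a window and were not set against binding data.

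Levels are log2 expression values made by the authors with RMA, and each is given with the rank of the probe set among the 12422 of its array, rank 1 being the brightest. A value also depends on how well the probes of a set bind, so ranks order probe sets and not transcript amounts. As a limit of background, each array's 90th percentile was taken over 80 probe sets that read 60 genes typical of other organs. It was 6.11, 5.82, 6.02 and 6.16 in mice 1 to 4. Above it on all 4 arrays were 7 of the 8 member genes and 10 of the 13 member probe sets. Of all genes 30.1% were above, and of all probe sets 24.6%. In the top 1% of every array, the 124 brightest probe sets, were 6 of the 8 genes and 8 of the 13 probe sets, where 0.824% of all genes and 0.886% of all probe sets stood. The members were named as secretory genes of this gland with earlier results known, so these shares describe them and test nothing. Fewer secretory cells and less RNA per cell cannot be told apart in whole-tissue RNA.

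**Figure D1:**
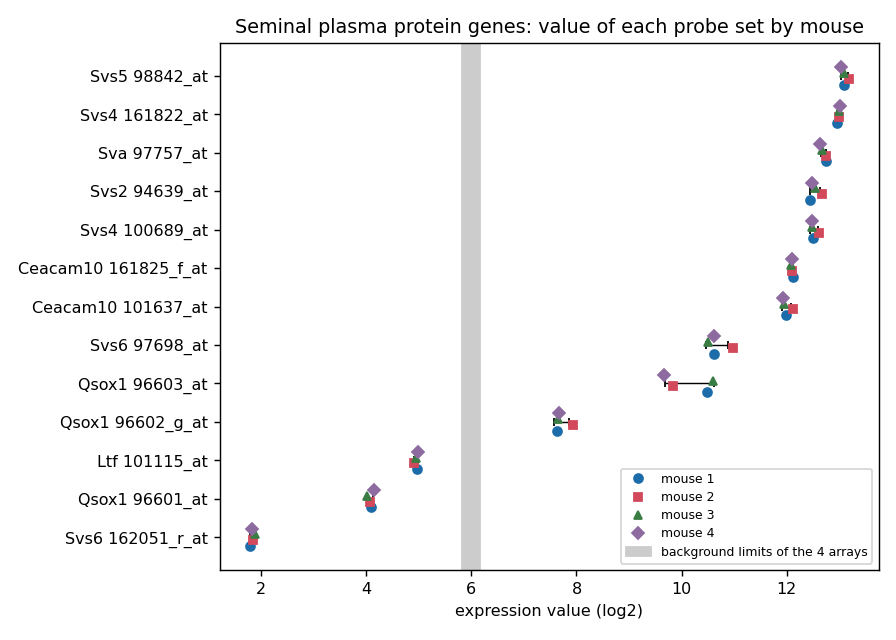
Expression value (log2, x axis) of each of the 13 member probe sets (y axis) in the 4 mice, with the black bar spanning the mean ± 1 SD and the grey band spanning the background limits of the arrays, 5.82 to 6.16. The points of the 4 mice lie within 0.30 of each other in all rows except Qsox1 96603_at and Svs6 97698_at, and 3 rows lie left of the band.

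Svs5, a small secreted protein of the vesicle fluid, was read by probe set 98842_at at 13.08, 13.18, 13.09 and 13.02 in mice 1 to 4. It was the brightest probe set of the array in all 4 mice, with a mean of 13.09 ± 0.06 (SD, n = 4). Svs4, a small basic protein known in the rat for effects on sperm and immune cells, had 2 probe sets. Probe set 161822_at gave 12.95 in mouse 1 and 12.99 to 13.01 in mice 2 to 4, which was rank 2 on every array. Probe set 100689_at gave 12.49, 12.62, 12.47 and 12.48, at ranks 5, 6, 6 and 6, so both readings of the gene were among the 6 brightest of each array.

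Svs2, the main clotting substrate of the plug and a protein that coats sperm, had 12.45, 12.67, 12.54 and 12.48 by probe set 94639_at. Its ranks were 7, 5, 5 and 5, and mouse 2 was highest. Svs6, the neighbour whose upstream sequence nearly matches that of Svs5, had 10.62, 10.98, 10.51 and 10.61 by probe set 97698_at. These values were ranks 47, 33, 51 and 46 of the array, all within the top 1%. A second Svs6 probe set, 162051_r_at, gave 1.79, 1.86, 1.90 and 1.83, at ranks 12404 to 12418 of 12422. The 2 readings of Svs6 thus lay at opposite ends of the array in every mouse, and the gene's level rests on the first. The suffix r marks sets whose probes were picked under relaxed design rules. Probe sequences were not used here, so how far Svs5 and Svs6 probes read each other's transcript was not tested.

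Sva, which binds sperm and is known to suppress their motility, had 12.74, 12.74, 12.66 and 12.64 by its 1 probe set, 97757_at. Its ranks were 3, 3, 4 and 3, and its mean was 12.69 ± 0.05 (SD, n = 4). Beside it in gene order on chromosome 6 lie Sval3, Sval1 and Sval2, which were not analysed here, and then Pip, the nearest measured gene on that side, which had 2.33 ± 0.08 (SD, n = 4), below the limit. Ceacam10, a soluble relative of the cell adhesion protein Ceacam1 that attaches to sperm, was read by 2 probe sets. Probe set 161825_f_at gave 12.13, 12.10, 12.08 and 12.09 at ranks 8 to 10, and 101637_at gave 11.98, 12.12, 11.96 and 11.93 at ranks 8 to 13. Its 4 mice differed by 0.0464 between highest and lowest on the first set, the smallest range of the 13. The suffix f marks sets whose probes match a family of related sequences.

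Ltf, an iron-binding protein of secretions and of neutrophil granules, was the 1 member gene with no probe set above the limit. Its probe set 101115_at gave 4.96, 4.90, 4.95 and 4.98, a mean difference of -1.08 from the limits. These values sat at ranks 6154 to 6328, which is the middle of the array, where the array medians were 4.95 to 4.98. The mice were close together, with a mean of 4.95 ± 0.03 (SD, n = 4). Of 9 measured neutrophil genes 1 was above the limit, the receptor gene Csf3r, and the granule genes Camp (5.86 ± 0.09), Lcn2 (5.61 ± 0.10), Ngp (4.33 ± 0.19) and Mpo (3.70 ± 0.23, SD, n = 4 each) were not. Camp and Mpo are also among the other-organ genes that set the limit, so their place below it is partly built in. A value below the limit does not show that a gene was silent.

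**Figure D2:**
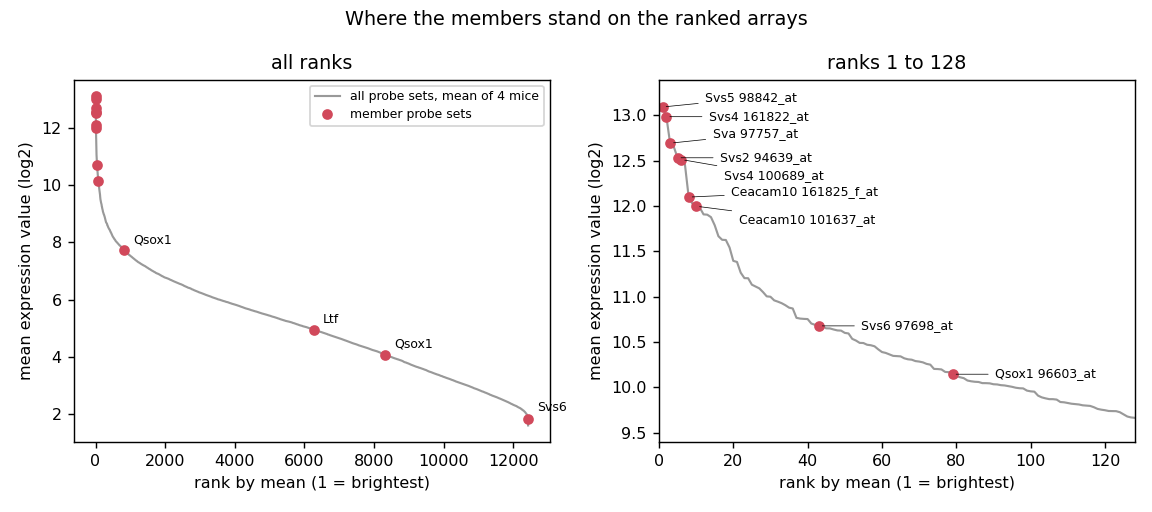
Mean expression value (log2, y axis) of all 12422 probe sets ordered by rank (x axis), with the 13 member probe sets as red points, over all ranks (left) and over the brightest (right). Of the red points 7 lie among the first 10 ranks, and those of Ltf, 1 of Qsox1 and 1 of Svs6 lie in the lower part of the left panel.

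Qsox1, which forms disulfide bonds in secreted proteins with oxygen as the acceptor, was read by 3 probe sets that differed from each other. Probe set 96603_at gave 10.47, 9.84, 10.60 and 9.66 in mice 1 to 4, at ranks 57, 109, 45 and 125. Mice 1 and 3 averaged 10.54 and mice 2 and 4 averaged 9.75, and the highest and lowest mouse were 0.94 apart, or 1.92-fold. These pairs were formed from the values of this set, so their not overlapping is built in. In mouse 4 this set missed the top 1%, whose last rank was 124, by 1 place. Probe set 96602_g_at gave 7.64, 7.93, 7.65 and 7.66, with mouse 2 highest and the other 3 mice within 0.03. Probe set 96601_at, below the limit, gave 4.09, 4.07, 4.02 and 4.14. The gap between mice 1 and 3 and mice 2 and 4 therefore appeared in 1 of the 3 readings. These are not independent, as 96601_at and 96602_g_at are annotated to the same source sequence, and 96601_at was below the limit. The suffix g marks sets that share probes with another set.

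**Figure D3:**
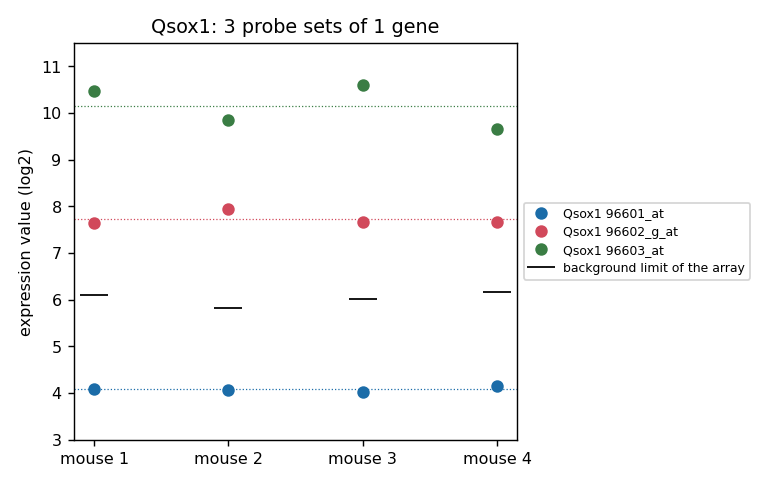
Expression values (log2, y axis) of the 3 Qsox1 probe sets in the 4 mice (x axis), with the dotted line at each set's mean and a dash at the background limit of the array. Only 96603_at shows mice 1 and 3 (10.47 and 10.60) apart from mice 2 and 4 (9.84 and 9.66).

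Ordered by mean, the 13 probe sets formed 12 pairs of neighbours, and in 8 of them the values of the 4 mice did not overlap. This is an order of probe sets and not of genes, as the 2 Svs4 sets, with means of 12.99 and 12.51, show. The 4 neighbours whose values overlapped were Sva with Svs2, Svs2 with Svs4 (100689_at), the 2 sets of Ceacam10, and Svs6 with Qsox1 (96603_at).

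The spread between mice was then tested. Each probe set's variance over the 4 mice was set against the variance that limma's model predicts for its signal, by an upper-tail F test adjusted by Benjamini-Hochberg over all 12422 probe sets. None of the 13 member probe sets was called at an adjusted p of 0.05, and 1 of 13 had an unadjusted p under 0.05. Over all probe sets 0.282% were called and 5.44% had such an unadjusted p. The exception was Qsox1 96603_at, whose SD of 0.463 was 3.66 times the predicted 0.126 (limma, unadjusted p = 0.00168, adjusted p = 0.243), and which does not pass. Its SD exceeded that of 98.5% of the 200 probe sets of nearest mean. Next came Svs6 97698_at with an SD of 0.208 against 0.124 predicted (limma, adjusted p = 0.981), and without mouse 2 its SD was 0.0619 against 0.0993 predicted. The remaining 11 sets had SDs of 0.0197 to 0.142.

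At the top of the array the spread was small. The 8 member probe sets of the top 1% had a median SD of 0.0670, against 0.0952 for all 110 probe sets there. Of the 13 member sets 10 had an SD below their predicted value, as did 55.9% of all probe sets. RMA includes a step that sets arrays to a common distribution, and its part in the spread at the highest ranks was not tested. A small spread of these sets does not show that the mice made equal amounts of the transcript.

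**Figure D4:**
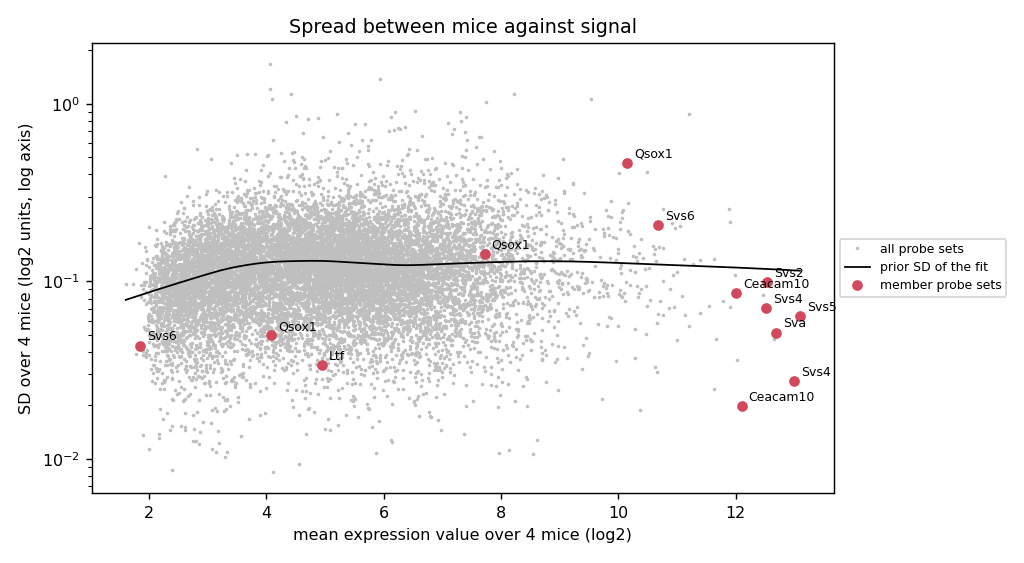
SD over the 4 mice (log2 units, logarithmic y axis) against mean expression value (log2, x axis) for all probe sets (grey), the SD predicted by the fit (black line) and the member probe sets (red). Qsox1 at a mean of 10.15 lies furthest above the line, Svs6 at 10.68 lies above it, and the 7 brightest member sets lie below it.

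Mouse 2 had the highest value for 6 of the 10 member probe sets above the limit: Svs2, Svs4 (100689_at), Svs5, Svs6 (97698_at), Ceacam10 (101637_at) and Qsox1 (96602_g_at). Mouse 2 was also highest for 29.8% of the whole set above the limit and for 46.4% of the top 1%. The count depended on how the arrays were scaled, at 9 of 10 with the arrays shifted to the same median and 3 of 10 after quantile normalization. The share of all probe sets above the limit moved the same way, at 35.0% and 23.6%. That of the top 1% was 58.2% and 23.6%. Ties were not counted. After quantile normalization Svs2, Svs4 (161822_at), Svs5 and Sva had mouse 2 tied with other mice for the highest value, so part of the fall is built in. The mean deviation of the 8 top member sets from their own 4-mouse means was -0.02, 0.10, -0.04 and -0.04 in mice 1 to 4. That of the 102 other probe sets of the top 1% was 0.06 in mouse 2. The 3 member sets highest in mouse 2 after quantile normalization were Svs6 97698_at, Qsox1 96602_g_at and Ceacam10 101637_at. In these, mouse 2 was then 0.29, 0.22 and 0.20 above the mean of the other mice. Luminal epithelial genes above the limit, 8 of 10 measured, had mean deviations of -0.02, 0.12, -0.10 and 0.00 in mice 1 to 4, and their value in mouse 2 was 0.08 after quantile normalization and 0.14 with a common median. Their part in the member values was not tested.

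**Figure D5:**
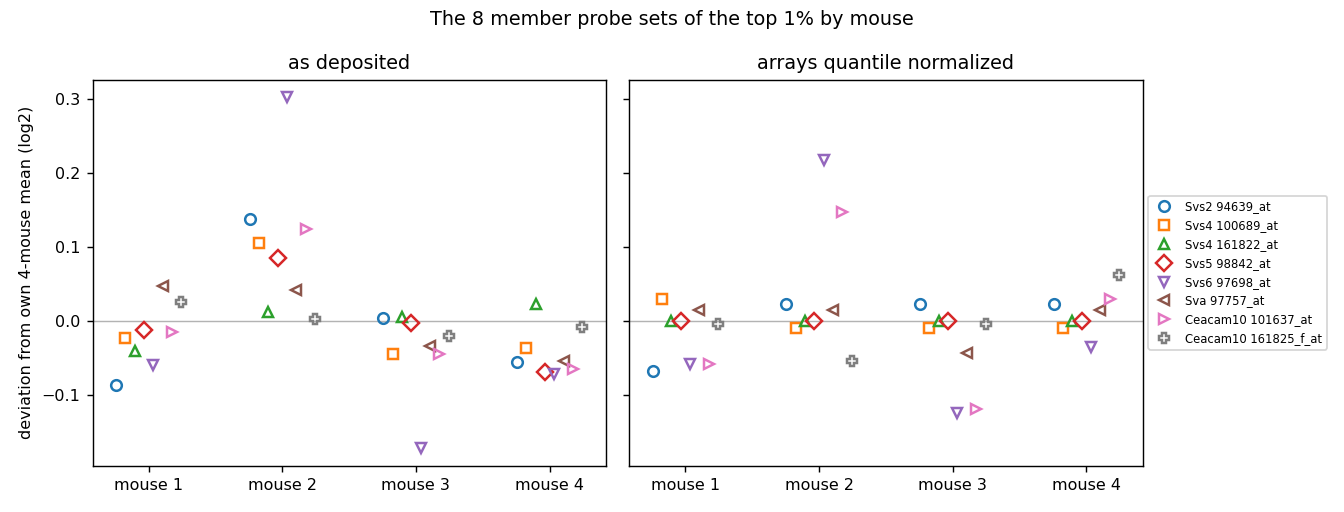
Deviation from the probe set's own 4-mouse mean (log2, y axis) of the 8 member probe sets of the top 1% in each mouse (x axis), as deposited (left) and after quantile normalization of the 4 arrays (right). In mouse 2 Svs6 97698_at stands highest in both panels, while Svs5 and Svs4 161822_at fall on 0 in the right panel by construction, since each held 1 rank on all arrays.

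For Qsox1 96603_at, the member set of largest SD, likeness was measured as the Euclidean distance between mean-centred values over the 4 mice. The 3 nearest genes on the whole array were Tax1bp1 (distance 0.162), Hnrnpc (0.167) and Ptprg (0.171), all with mean values below the limit, of 4.25, 3.55 and 3.88. Among probe sets above the limit, a choice made after the values were seen, the nearest were Tsc22d1 (0.205), Ero1b (0.226) and Fkbp11 (0.242). Ero1b, an oxidase of the endoplasmic reticulum, had 9.51, 8.92, 9.57 and 8.93 in mice 1 to 4. Fkbp11, a prolyl isomerase of that compartment, had 7.39, 6.79, 7.50 and 6.86, and the transcriptional regulator gene Tsc22d1 had 7.42, 7.02, 7.62 and 6.58. In each of these 3, as in Qsox1 96603_at, mice 1 and 3 were above mice 2 and 4. The 3 genes were picked for likeness to that set, so the shared order is largely built in. Of all probe sets above the limit 18.5% had this order. Over 4 mice such a likeness is a description only.

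Genes that handle signal peptides or form disulfide bonds were largely above the limit, in 20 of 26 measured cases, with 3 in the top 1%. The brightest were the translocon-associated Ssr3 (10.31 ± 0.13), the translocon subunit Sec61a1 (10.28 ± 0.04), the chaperone Hspa5 (9.73 ± 0.02) and Ero1b (9.23 ± 0.35, SD, n = 4 each). Of the 20, 8 had mice 1 and 3 above mice 2 and 4 by their brightest probe set. Among them were Ero1b, Ssr3 and the disulfide isomerase gene P4hb, which had 9.12, 8.83, 9.29 and 8.99. The same order was found in 18.5% of all probe sets above the limit. It was taken from the most variable Qsox1 set after its values were seen, so the count is a description only. None of the 26 was called by limma's variance test, and 4 had an unadjusted p under 0.05. Over all probe sets these shares were 0.282% and 5.44%. The mean deviations of the 20 were 0.02, -0.06, 0.09 and -0.05 in mice 1 to 4. Smooth muscle genes, 9 of 10 above the limit, had mean deviations of 0.34, -0.18, -0.04 and -0.12. These too were higher in mice 1 and 3 than in mice 2 and 4, and all 9 genes were highest in mouse 1. Gene by gene, Tagln, Cnn1, Myh11, Acta2, Smtn and Myl9 had mice 1 and 3 above mice 2 and 4. Actg2, Mylk and Des did not. The order was thus not particular to the disulfide list. Neither list's part in the Qsox1 values was tested.

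Of the relatives of the members, 8 genes related to Ceacam10, Ltf or Sva were measured. None was above the limit on all 4 arrays. The brightest were Ceacam1 (5.98 ± 0.22), the transferrin-family gene Meltf (5.44 ± 0.06), Ceacam2 (4.42 ± 0.13) and Ceacam11 (3.12 ± 0.11, SD, n = 4 each). Ceacam1 had 6.21 and 5.92 in mice 1 and 2, above those arrays' limits, and was below the limit in mice 3 and 4. Probe sets annotated to several genes at once were not counted. Svs3a and Svs3b, the genes between the clustered members, were not analysed here. Of 23 measured genes for plug cross-linking, kallikrein proteases and protease inhibitors, 2 were above: the cystatin Cst3 (9.96 ± 0.13) and Slpi (6.28 ± 0.12). Spink4 (5.82 ± 0.12) and the kallikrein Klk1b21 (5.64 ± 0.10, SD, n = 4 each) followed.

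Of 25 other secreted proteins of accessory glands 9 were above the limit. B2m, the light chain of MHC class I molecules, had 11.91 ± 0.07, the nucleobindin gene Nucb2 had 9.91 ± 0.18, the milk-fat globule protein gene Mfge8 had 8.42 ± 0.05 and the plasma glutathione peroxidase gene Gpx3 had 8.10 ± 0.13 (SD, n = 4 each). In this list 1 gene was called variable, the prostate secretory gene Pbsn (limma, adjusted p = 0.00150), and 0 in each of the 3 other lists. At an unadjusted p under 0.05 by limma stood 5 genes of this list, 1 of the plug list, 0 of the relatives and 4 of the disulfide list, each by its brightest probe set. Of all probe sets 5.44% stood there, and 0.282% were called.

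Among the 20 single-gene probe sets of highest mean, 7 were members and 13 were not. Those 13 were for Rpl41, Eef1a1, Cd52, Wdr92, B2m, Rplp0, Rps28 (2 sets), Tpt1, Cdo1, Rabac1, Gnas and Rps4x, of which Rpl41, Rplp0, Rps28 and Rps4x encode ribosomal proteins and Eef1a1 an elongation factor. They had SDs of 0.0248 to 0.216. Rpl41, at ranks 3 to 4, and Eef1a1, at ranks 6 to 7, were the 2 named non-members among the 7 brightest probe sets.

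Any 2 arrays had a Pearson's r of 0.992 to 0.994 over the 12422 probe sets, a description in which probe sets do not count as replicates. Luminal markers were above the limit in 8 of 10 cases, smooth muscle markers in 9 of 10, and basal markers in 2 of 6, with Krt5 (4.80 ± 0.16), Krt14 (4.42 ± 0.13) and Trp63 (5.04 ± 0.04, SD, n = 4 each) below it. Of 6 genes listed for prostate and coagulating gland 3 were above, Fkbp5 (8.05 ± 0.09), Psca (6.52 ± 0.20) and Hoxb13 (6.16 ± 0.09, SD, n = 4 each). Whether these 3 are particular to those glands was not tested. Msmb (3.39 ± 0.24) and Spink1 (3.69 ± 0.20, SD, n = 4 each) were below it. Of 3 vas deferens and epididymis markers 0 were above. The prostate marker Pbsn had 6.57 in mouse 1, above that array's limit, against 3.02, 3.18 and 3.47 in mice 2 to 4. Of 6 B and plasma cell genes 3 were called variable by limma, the immunoglobulin genes Ighm (8.51, 9.14, 8.67 and 6.57 in mice 1 to 4) and Igha (6.34 in mouse 4 and up to 7.98 in the others) and the joining chain gene Jchain (5.86, 6.55, 6.74 and 5.20), each lowest in mouse 4. Ighm, Igha and Jchain were each called by the brightest probe set of the gene, where 0.282% of all probe sets were called. The part of these cells and tissues in the member values was not tested. As a sign of RNA quality, the 3′ set exceeded the 5′ set of the beta-actin control by 1.08, 0.82, 1.02 and 0.98 in mice 1 to 4, and for Gapdh the same difference was -0.12, -0.15, -0.15 and -0.13.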

How the data were processed

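Total RNA from 4 seminal vesicles was hybridised to Mu74AV2 arrays. The authors deposited log2 values for each probe set, and the submitters' processing notes name RMA. Its version is not given in the sources used here, nor is the set of arrays it was run on. The log2 scale was read from the values, 1.47 to 13.2. Of 12488 probe sets 66 controls were left out. Genes were named by the platform annotation, with 10833 of 12422 probe sets read as 1 gene. Members and gene lists were chosen with earlier results of these data known, and the motifs, the alignment's gap costs, the likeness among sets above the limit and the mouse 2 counts after values were seen.

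The variance test used limma 3.58.1 in R 4.3.3 with a robust prior and mean signal as trend (prior degrees of freedom 8.06), tested on simulated data. Named were all member probe sets, the 20 brightest single-gene probe sets, the 4 brightest and any called gene of each list, and the 3 genes most like the most variable member. Others are named as background. Promoter windows are RefSeq's, GRCm38.p6. The labels do not say whether mice shared a litter or batch. The number of arrays, 4, limits precision. Alternatives covered array scaling, each mouse left out, the prior, filters, limits and ways to combine probe sets. Figures were drawn in Python 3.11.15.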

Additional observations from a re-analysis of the deposited data

Results flagged for a closer look

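In the Svs4 probe set 100689_at, mouse 2 (12.62) stood apart from the other 3 mice (12.47 to 12.49), with a gap to the nearest of 0.854 of the whole range. In the Qsox1 probe set 96602_g_at, mouse 2 (7.93) stood apart from 7.64 to 7.66 in the others, with a gap of 0.922 of the range. Both exceed Dixon's critical value of 0.829 for 4 samples. Of the 13 member probe sets 2 exceeded it, and of all 12422 probe sets 5.09% did (632), where chance gives about 1 in 20. Neither gap appeared in another probe set of the same gene above the limit: in Svs4 161822_at mouse 4 was highest, and in Qsox1 96603_at mouse 3 was. The Svs4 gap also depended on array scaling. After quantile normalization mouse 1 (12.54) was highest in 100689_at, and mouse 2 (12.51) was level with mice 3 and 4. In Qsox1 96602_g_at mouse 2 (7.88) was still highest after that step.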

How the results depend on the processing

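Under all alternatives run (scaling, each mouse left out, the prior, filters and combined probe sets) the count of member probe sets called variable by limma stayed 0 (the filters on dim sets drop 3 of the 13). For Qsox1 96603_at the SD was 0.407 to 0.510 with each mouse left out, and the adjusted p (limma) over all settings 0.162 to 0.627. Over all probe sets the count of calls was 35 and moved to 15 with a non-robust prior, 17 without mouse 4 or with probe sets of a gene averaged, 23 without mouse 2, 44 without mouse 3, 1 above the median signal and 0 above the mean background limit (191 at an unadjusted p under 0.05). Member genes above the limit numbered 7 under each alternative. The count in the top 1% was 6, and 7 at a top 2%, among genes or without mouse 4, and 5 with probe sets averaged. Members highest in mouse 2 were 6 of 10 as deposited, 9 with a common median and 3 after quantile normalization. Ties were not counted, and this comparison was added after the data were seen. No paired analysis was possible because there is 1 group. Without mouse 2 the SD of Svs6 97698_at was 0.0619.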
